A study of Mus musculus with 13 samples.

Results

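The genes described here encode transcription factors of differentiated, cytokine-producing T cells. They were taken from the table by gene symbol, as Batf, Batf3, Irf4, Irf8, Prdm1, Maf, Nfil3, Bhlhe40, Rbpj and Id2. Of these 10 genes, 9 had a row in the deposited table of 12963 genes, and all 9 passed the filter on low values, which 12667 genes passed. Batf3 was not analysed here.

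BATF is a small basic leucine zipper protein of the AP-1 family that has no activation domain of its own. It pairs with JUN proteins and binds DNA together with IRF4 or IRF8, and these complexes open and activate effector genes in activated CD4+ and CD8+ T cells and in Treg cells of non-lymphoid tissue. Blimp-1, the product of Prdm1, and c-Maf act downstream of antigen receptor and cytokine signals, Blimp-1 chiefly as a repressor and c-Maf as an activator of cytokine genes that include Il10. NFIL3 and BHLHE40 are mostly repressors, RBPJ is the DNA-binding partner of Notch, and ID2 holds E proteins away from DNA.

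T cells were sorted from subcutaneous tumors of the mouse melanoma line B16-F10 grown in Foxp3-EGFP-DTR mice. The endogenous Foxp3 gene of these animals drives EGFP and the diphtheria toxin receptor (DTR), and giving diphtheria toxin (DTx) ablates their Foxp3+ Treg cells. All 5 groups carried this allele. They were GFP+ Treg cells, GFP- CD4+ conventional T (Tconv) cells and CD8+ Tconv cells from mice given PBS (Treg PBS, n = 3, CD4 PBS, n = 2, and CD8 PBS, n = 2), and CD4+ and CD8+ Tconv cells from mice given DTx (CD4 DTx and CD8 DTx, n = 3 each). The mice were adults of both sexes, and replicates were collected on separate days according to the study. Levels are given as normalized reads, the deposited read counts scaled for library size but not for gene length, so a level is compared between groups and never between genes. In these sorted pools, a change in the share of cells that express a gene and a change in the level per cell cannot be told apart.

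The 13 libraries held between 15947556 and 34140486 reads on genes. Foxp3 was at 0 in both CD4 PBS libraries and at no more than 0.114% of the Treg PBS mean in any CD4 DTx library. Cd8a in the CD4 DTx libraries was between 0.256% and 3.24% of the CD8 DTx mean. CD8 DTx replicate 2 held 7313 normalized reads of Mcpt8, a basophil protease, and 2147 of Ncr1, an NK cell receptor, against 8.31 and 17.6 in CD8 DTx replicate 1 and 828 and 599 in replicate 3. Replicate 3 of every group was from male mice by its Y-linked reads, and the others were from females. A gene is said below to have risen or fallen where limma gave a Benjamini-Hochberg adjusted p below 0.05 over all 12667 genes.

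The sequence just upstream of Batf, Prdm1 and Irf4 is shown first, to show which letters known to be bound by the factors of this set, or by their partners, occur there. The lines give the 250 bases before the RefSeq start site in build GRCm38.p6, 5′ to 3′ on the strand of the gene, in lower case. Capitals mark matches on either strand to 9 motifs: TGANTCA (AP-1), 2 copies of GAAA with 2 free bases between (IRF), GAAA directly before TGANTCA (an AP-1 and IRF composite), GTGAAAG (Blimp-1), TTANGTAA (NFIL3), CACGTG (BHLHE40), TGGGAA (RBPJ), CAGNTG (E protein) and TGCTGAC (MAF).
Batf, chr12:85686470-85686719, plus strand: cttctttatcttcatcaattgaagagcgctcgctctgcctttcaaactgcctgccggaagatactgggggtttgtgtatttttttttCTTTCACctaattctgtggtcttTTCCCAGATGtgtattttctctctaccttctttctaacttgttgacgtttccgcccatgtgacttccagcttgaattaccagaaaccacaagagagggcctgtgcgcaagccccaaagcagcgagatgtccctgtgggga
Prdm1, chr10:44458749-44458998, minus strand: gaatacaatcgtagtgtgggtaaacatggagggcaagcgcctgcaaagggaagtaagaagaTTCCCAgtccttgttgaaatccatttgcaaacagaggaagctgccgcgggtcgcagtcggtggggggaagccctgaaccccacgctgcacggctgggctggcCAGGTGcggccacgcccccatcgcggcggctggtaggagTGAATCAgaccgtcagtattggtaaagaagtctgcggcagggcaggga
Irf4, chr13:30748983-30749232, plus strand: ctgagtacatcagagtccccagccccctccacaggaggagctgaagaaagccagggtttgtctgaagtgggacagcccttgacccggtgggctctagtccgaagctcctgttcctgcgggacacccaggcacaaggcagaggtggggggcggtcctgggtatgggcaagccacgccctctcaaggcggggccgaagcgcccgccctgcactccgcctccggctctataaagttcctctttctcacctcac

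The Batf window held a Blimp-1 motif, on the opposite strand and 163 bases before the start site. It also held an RBPJ motif and an E protein motif, which overlap and appear as 1 run of capitals. The Prdm1 window held an AP-1 motif, TGAATCA, 48 bases before the start site, with an E protein motif and an RBPJ motif farther out. The Irf4 window held none of the 9 motifs. Over 32851 promoter windows of the same length, 6.75% held the AP-1 motif, 3.57% the Blimp-1 motif, 21.6% the RBPJ motif and 44.8% the E protein motif. A match of letters is a description and no evidence of binding. Windows were at hand for 8 of the 10 genes, and Maf and Bhlhe40 were not among them.

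**Figure D1:**
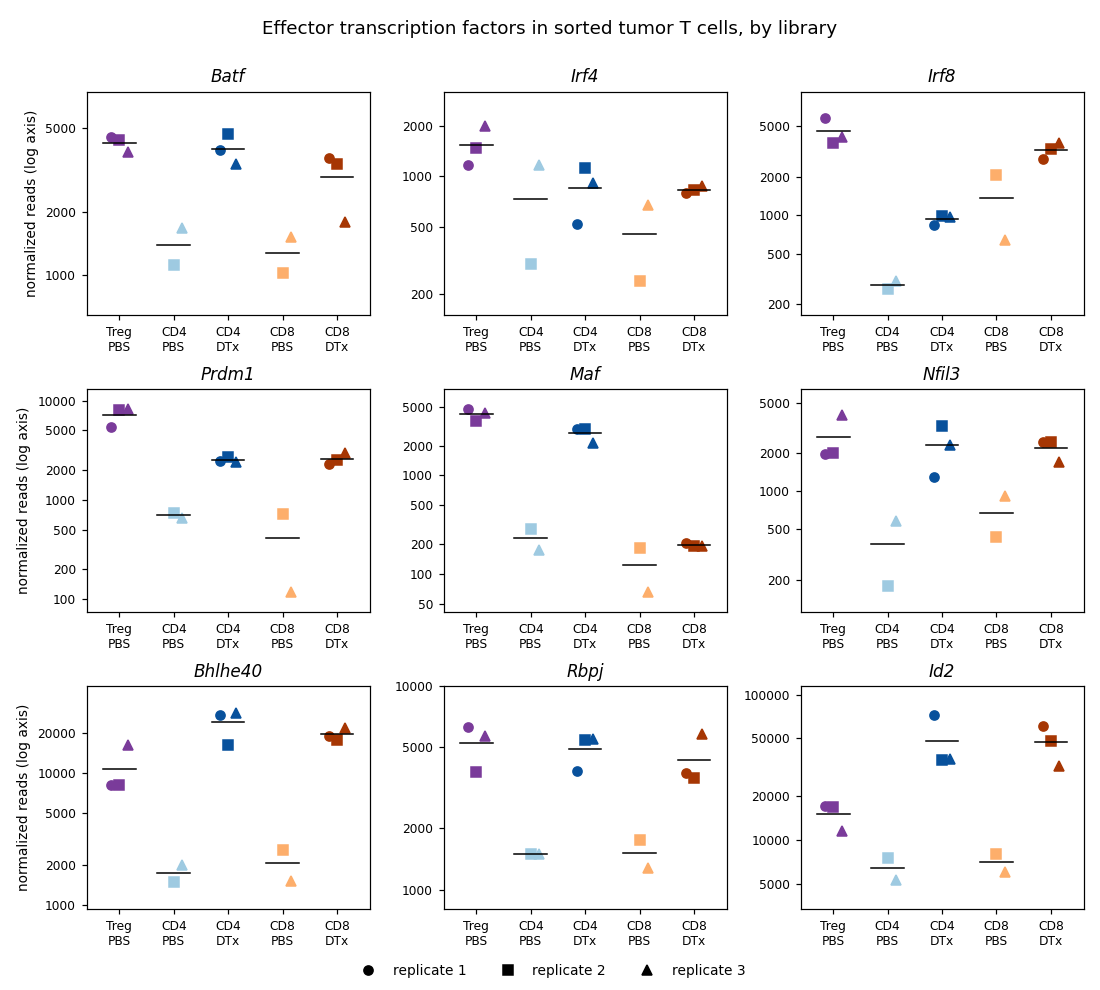
Normalized reads of the 9 measured genes (log axes, with a separate scale for each gene) in each of the 13 libraries, by group. Each symbol is 1 library, its shape gives the replicate number, and horizontal lines are group means. For Bhlhe40 and Id2, all 6 DTx libraries lie above all 3 Treg PBS libraries, and for Maf the CD8 DTx libraries stay at 191 to 204 normalized reads.

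The first comparison asked how the factors differed between Treg cells and CD4+ Tconv cells while Treg cells were in place. Of the 9 genes, 8 were higher in Treg PBS than in CD4 PBS and none was lower, where 13.5% of all genes tested were higher. Their median log2 difference was 2.57, against 0.01 over all genes tested. Past 4-fold there were 5, namely Irf8, Prdm1, Maf, Nfil3 and Bhlhe40, against 7.85% of all genes. Irf4 was the exception, and the Id2 call was kept in 10 of 15 alternatives. CD8 PBS cells resembled CD4 PBS cells in that 8 of the 9 genes were higher in Treg PBS, where 11.9% of all genes were higher. Irf4 was among them here (log2 difference 1.90, limma, adjusted p = 0.0312, called in 9 of 15 alternatives). Id2 missed the threshold there (log2 difference 1.10, limma, adjusted p = 0.0519).

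The second comparison asked what Treg cell ablation changed in the Tconv cells that remained. In CD4+ Tconv cells, 8 of the 9 genes rose with DTx and none fell, where 8.64% of all genes tested rose. In CD8+ Tconv cells, 6 of the 9 rose and none fell, where 7.4% of all genes rose. The median log2 fold changes were 1.85 and 1.50, against -0.04 and -0.03 over all genes tested. Bhlhe40 and Id2 passed 4-fold in both cell types, Maf and Nfil3 in CD4+ cells and Prdm1 in CD8+ cells, where 5.06% of all genes passed it in CD4+ cells and 3.87% in CD8+ cells. In CD8+ cells, every DTx library exceeded both PBS libraries for all 9 genes, and 22.8% of all genes were separated in that direction. In CD4+ cells this held for all but Irf4, against 23.4% of all genes. The counts rest partly on single PBS libraries, since only 4 genes rose in CD4+ cells without CD4 PBS replicate 2 and only 3 in CD8+ cells without CD8 PBS replicate 3. The Treg PBS and CD4 DTx comparisons share the CD4 PBS libraries, so a low or high CD4 PBS value moves both.

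**Figure D2:**
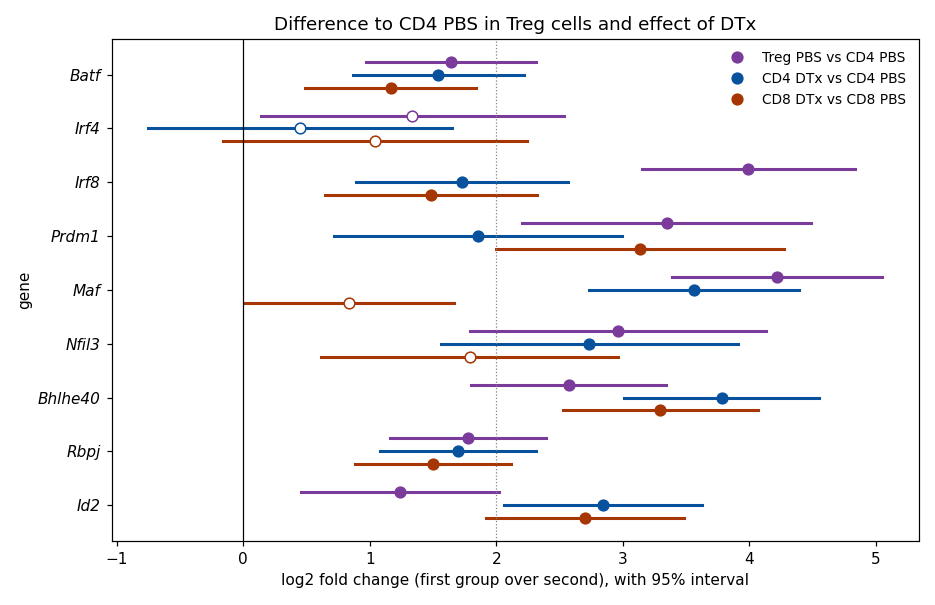
Log2 fold changes (points) with 95% intervals (lines) from limma for each gene, for Treg PBS over CD4 PBS, CD4 DTx over CD4 PBS and CD8 DTx over CD8 PBS. Filled points passed the adjusted p threshold of 0.05, open points did not, the solid line marks no change and the dotted line marks 4-fold. Irf4 is open in all 3 comparisons, and Maf is filled in both CD4+ comparisons and open in CD8+ cells.

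In Treg PBS cells, Batf reached 4565, 4385 and 3845 normalized reads. CD4 PBS values were 1112 and 1674, and CD4 DTx values were 3969, 4683 and 3384. The CD4 DTx values lay within or beside the range of Treg cells and well above CD4 PBS. Batf rose by 1.54 on the log2 scale in CD4+ Tconv cells (SE 0.31, limma, adjusted p = 0.00613, called in 14 of 15 alternatives). The Treg PBS difference was 1.64 (limma, adjusted p = 0.00286). For CD8+ cells the PBS values were 1028 and 1512 and the DTx values 3599, 3381 and 1792. The third CD8 DTx library lay closer to the PBS libraries than the other two, and the log2 fold change was 1.16 (SE 0.31, limma, adjusted p = 0.0321), a call lost in 6 of 15 alternative settings. Batf differed between CD4 DTx and Treg PBS by -0.10 (95% interval -0.70 to 0.50), which was not called.

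Irf4, the partner of BATF that follows antigen receptor signal strength, did not pass the test in either Tconv comparison. It was at 1162, 1482 and 1985 normalized reads in Treg PBS and at 305 and 1162 in CD4 PBS. The 2 CD4 PBS libraries lay far apart, the higher one level with the lowest Treg PBS library. CD4 DTx libraries held 523, 1129 and 911, between those 2 values, and the log2 fold change was 0.45 (95% interval -0.75 to 1.65, limma, adjusted p = 0.638). CD8 PBS libraries held 241 and 674, and CD8 DTx libraries 793, 825 and 876. The CD8 DTx libraries lay close together and above both CD8 PBS libraries, with a log2 fold change of 1.04 (SE 0.55, adjusted p = 0.25). The Treg PBS difference from CD4 PBS was 1.34 (adjusted p = 0.107).

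The PBS libraries with more Irf4 also held more mRNA of the immediate-early AP-1 genes Fos and Jun, which respond to stimulation within minutes. In CD4 PBS, Fos was at 54781 normalized reads in replicate 3 and at 5052 in replicate 2. In CD8 PBS it was at 54646 in replicate 3 and at 3397 in replicate 2, and in Treg PBS at 427, 2378 and 38019. Batf, Irf4 and Nfil3 were higher in replicate 3 than in replicate 2 of both PBS-treated Tconv groups, while Prdm1, Maf and Id2 were lower there. The part of these differences in the results above was not tested.

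Irf8, a relative of Irf4 best known from myeloid and B cells and also induced in effector CD8+ T cells, had a pattern of its own. Treg PBS libraries held 5863, 3711 and 4121 normalized reads and CD4 PBS libraries 261 and 301, a log2 difference of 3.99 (SE 0.39, limma, adjusted p = 4.25e-05). CD4 DTx libraries held 833, 995 and 974. Irf8 therefore rose in CD4+ Tconv cells (log2 fold change 1.73, limma, adjusted p = 0.0111, called in 13 of 15 alternatives). It stayed below every Treg PBS library, at 20.5% of the Treg PBS mean (log2 difference -2.26, limma, adjusted p = 0.00201). CD8 PBS libraries held 2073 and 642, and CD8 DTx libraries 2772, 3296 and 3699. In CD8+ cells Irf8 rose by 1.49 on the log2 scale (SE 0.39, adjusted p = 0.0292) to 71.3% of the Treg PBS mean. That call was lost in 6 of 15 alternatives, and the value was 0.64 without CD8 PBS replicate 3 and 2.33 without CD8 PBS replicate 2. The difference from Treg PBS of -0.47 was not called (95% interval -1.22 to 0.28).

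Irf8 was also higher in CD8+ than in CD4+ Tconv cells, both with PBS (log2 difference 2.04, limma, adjusted p = 0.0417) and with DTx (1.79, adjusted p = 0.0249). Of all genes tested, 0.837% were higher in CD8 PBS than in CD4 PBS, and 0.892% were higher in CD8 DTx than in CD4 DTx. The PBS call was lost in 6 of 14 alternatives, with a log2 difference of 1.19 without CD8 PBS replicate 2 and 2.88 without CD8 PBS replicate 3. The DTx call was lost whenever any 1 of the 6 DTx libraries was left out, with log2 differences between 1.70 and 1.91 throughout. CD8 PBS replicate 2, the library with more Irf8, also held more Ncr1 (956 against 25.3), and the part of this in the comparison was not tested. Irf8 is also a gene of dendritic cells and B cells. The 7 conventional dendritic cell markers, all in the table, summed to 541 to 1014 normalized reads in Treg PBS, 83.2 to 261 in CD4 PBS, 656 to 890 in CD4 DTx, 285 to 908 in CD8 PBS and 3545 to 6408 in CD8 DTx. The sum thus moved with Irf8 in all 3 comparisons, but not every marker in it did. Means in CD4 PBS and CD4 DTx were 47.8 and 502 for Xcr1, 0 and 265 for Itgax, and 0 and 10.9 for Wdfy4. They were 46.9 and 17.7 for Zbtb46, 66.5 and 9.56 for Cd209a, and 10.9 and 5.58 for Flt3. Of these markers, Itgax, which effector CD8+ T cells also express, ranged from 2852 to 5785 in CD8 DTx, against 109 to 502 in CD8 PBS. Xcr1, a chemokine receptor gene, was at 478 to 657 and at 96.0 to 139 in the same groups, and at 278 to 337 in Treg PBS against 21.8 to 73.8 in CD4 PBS. Zbtb46 ranged from 224 to 611 in Treg PBS, 17.2 to 76.5 in CD4 PBS, 54.7 to 163 in CD8 PBS and 11.6 to 121 in CD8 DTx, and Clec9a was at 0 in all 13 libraries. The 6 macrophage and monocyte markers summed to 648 to 1929 in CD8 PBS and 1825.5 to 2748 in CD8 DTx, but not every marker rose. Means in CD8 PBS and CD8 DTx were 109 and 1224 for Itgam, 199 and 899 for Cd68, and 10.3 and 33.5 for Adgre1. They were 909 and 148 for Lyz2, and the Csf1r and Cd14 means were also lower in CD8 DTx. The summed B cell markers (4 of 5 in the table) were at 441 to 948 in Treg PBS and 147 to 272 in CD4 PBS. The part of these cell types in the Irf8 results was not tested.

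Prdm1 was at 5429, 7989 and 8225 normalized reads in Treg PBS and at 737 and 660 in CD4 PBS (log2 difference 3.34, SE 0.52, limma, adjusted p = 8.68e-04). CD4 DTx libraries held 2461, 2706 and 2413, and CD8 DTx libraries 2298, 2535 and 2953. These 6 libraries formed a narrow band between PBS-treated Tconv cells and Treg cells, at 35.0% and 36.0% of the Treg PBS mean. In CD4+ cells the log2 fold change was 1.85 (SE 0.52, adjusted p = 0.0365), which was lost in 7 of 15 alternatives although the value stayed between 1.78 and 1.95. CD8 PBS libraries held 719 and 119, and the log2 fold change in CD8+ cells was 3.14 (SE 0.52, adjusted p = 0.00329). That value depends on CD8 PBS replicate 3, the library at 119, without which it was 1.84. No DTx library reached a Treg PBS library, and the log2 differences from Treg PBS of -1.49 in CD4+ cells and -1.46 in CD8+ cells did not pass (adjusted p = 0.0746 and 0.0852). They were called in 3 and 2 of 16 alternatives, the replicate block among the first.

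Maf separated the 2 Tconv lineages. Treg PBS libraries held 4740, 3576 and 4296 normalized reads. CD4 PBS libraries held 283 and 177, and CD4 DTx libraries held 2966, 2949 and 2137. The CD4 DTx libraries lay far above CD4 PBS and below every Treg PBS library, at 63.9% of the Treg PBS mean. On the log2 scale Maf rose by 3.56 (SE 0.38, limma, adjusted p = 1.58e-04), which kept its call in all 15 alternatives. CD8 PBS libraries held 183 and 65.3 and CD8 DTx libraries 204, 191 and 194, so that CD8 DTx cells stayed at 4.67% of the Treg PBS mean. The CD8+ log2 fold change was 0.83 (95% interval 0.00 to 1.67, adjusted p = 0.189), and it was 1.57 and called without CD8 PBS replicate 2 (adjusted p = 0.0224).

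After DTx, Maf was lower in CD8+ than in CD4+ Tconv cells by a log2 difference of -3.75 (SE 0.34, limma, adjusted p = 2.42e-04), and this call held in all 16 alternatives. Of all genes tested, 0.75% were lower in CD8 DTx than in CD4 DTx. Irf8 and Maf were thus the 2 of the 9 genes that differed between the DTx-treated lineages, in opposite directions. The direct test of whether DTx changed Maf more in CD4+ than in CD8+ cells gave a log2 difference of 2.73 (SE 0.54, unadjusted p = 2.73e-04, adjusted p = 0.191) and was not called. In that interaction test none of the 9 genes was called by limma, 1 was below an unadjusted p of 0.05, and 0.0474% of all genes were called. Maf was called there in 2 of 20 alternatives, by DESeq2 (adjusted p = 6.19e-05) and by limma without CD8 PBS replicate 3 (3.47, adjusted p = 0.0141), and the adjusted p ranged up to 0.439. Tumor macrophages also express Maf. The summed level of the 6 macrophage and monocyte markers was 1107 to 1279 normalized reads in CD4 PBS, 88.8 to 2096 in CD4 DTx and 1144 to 3525 in Treg PBS. Its part in the Maf results was not tested.

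**Figure D3:**
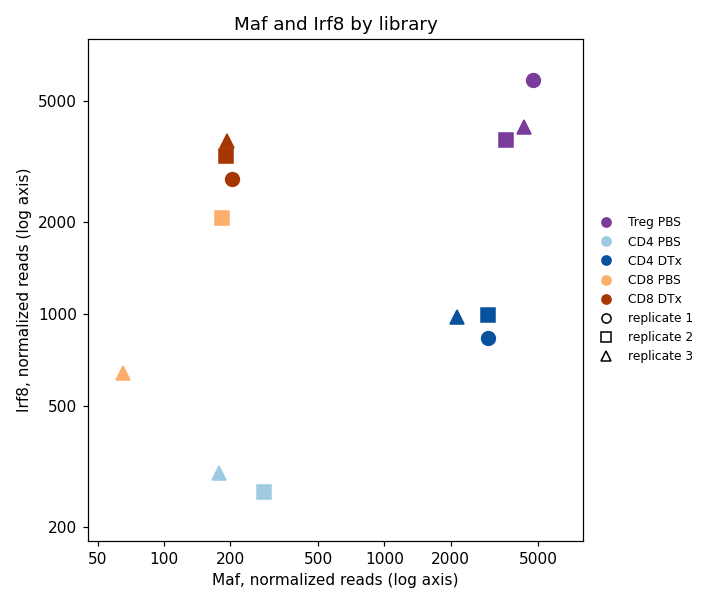
Irf8 against Maf in each of the 13 libraries (normalized reads, both axes log), with color for the group and shape for the replicate number. CD4 DTx libraries moved right of CD4 PBS along Maf, with 2137 to 2966 normalized reads. They also moved up along Irf8, with 833 to 995 against 261 to 301 in CD4 PBS. CD8 DTx libraries moved up along Irf8, with 2772 to 3699. Only Treg PBS libraries were high for both.

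Nfil3 was at 1959, 1987 and 4020 normalized reads in Treg PBS and at 176 and 581 in CD4 PBS. CD4 DTx libraries held 1290, 3288 and 2306, which overlapped Treg PBS. Nfil3 rose in CD4+ Tconv cells by 2.74 on the log2 scale (SE 0.54, limma, adjusted p = 0.0055). This call was kept in 13 of 15 alternatives and lost, among others, with only the groups compared in the fit. Without CD4 PBS replicate 2 the value was 1.88. CD8 PBS libraries held 434 and 906, and CD8 DTx libraries 2461, 2447 and 1692. The groups did not overlap, yet the log2 fold change of 1.79 missed the threshold narrowly (SE 0.54, adjusted p = 0.0534), and 7 of 15 alternatives called it.

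Bhlhe40, induced by T cell receptor signals and needed by several kinds of effector T cell for cytokine production, had the largest fold change of the 9 genes in both Tconv comparisons. CD4 PBS libraries held 1479 and 1997 normalized reads and CD4 DTx libraries 27736, 16479 and 28828. CD8 PBS libraries held 2617 and 1521 and CD8 DTx libraries 19199, 17752 and 22148. Bhlhe40 rose by 3.78 on the log2 scale in CD4+ cells (SE 0.35, limma, adjusted p = 8.08e-05) and by 3.30 in the CD8+ population (SE 0.35, adjusted p = 4.32e-04), and both calls held in all 15 alternatives. Treg PBS libraries held 8079.6, 8146 and 16223, below every DTx library. The CD4 DTx mean was 225% and the CD8 DTx mean 182% of the Treg PBS mean. Above Treg PBS, the log2 difference of 1.21 in CD4 DTx passed the test (adjusted p = 0.0366, lost in 8 of 16 alternatives), and the 0.94 in CD8 DTx did not (adjusted p = 0.0998).

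Rbpj differed little between the Tconv lineages. It was at 1494 and 1502 normalized reads in CD4 PBS and at 1759 and 1284 in CD8 PBS. It was at 3837, 5413 and 5506 in CD4 DTx, at 3748, 3529 and 5785 in CD8 DTx, and at 6277, 3782 and 5681 in Treg PBS. The DTx groups overlapped Treg PBS and lay above all 4 PBS-treated Tconv libraries. Rbpj rose by 1.70 on the log2 scale in CD4+ cells (SE 0.28, limma, adjusted p = 0.00192). The rise in CD8+ cells was 1.50 (SE 0.28, limma, adjusted p = 0.00598, called in 13 of 15 alternatives). Rbpj differed between CD4 DTx and Treg PBS by -0.08 (95% interval -0.63 to 0.47).

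Id2, which promotes effector over memory differentiation of CD8+ T cells, was the other gene to exceed Treg cells after DTx. CD4 PBS libraries held 7449 and 5320 normalized reads, CD8 PBS libraries 7969 and 6052, and Treg PBS libraries 17159, 16761 and 11454. CD4 DTx libraries held 71932, 35365 and 36046, and CD8 DTx libraries 60581, 47735 and 32008. All 6 DTx libraries were above all 3 Treg PBS libraries, with means of 316% and 309% of the Treg PBS mean. Id2 rose by 2.84 on the log2 scale in CD4+ cells (SE 0.36, limma, adjusted p = 3.70e-04) and by 2.70 in those of the CD8+ lineage (SE 0.36, adjusted p = 0.00114), and both calls held in all 15 alternatives. Above Treg PBS the log2 differences were 1.60 in each (adjusted p = 0.0102 and 0.00818).

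The 9 genes thus fell into different orders across the 5 groups. Batf, Nfil3 and Rbpj were at 68.6% to 94.1% of the Treg PBS mean in the DTx groups, and none of these differences was called. Prdm1 and Irf4 were at 35.0% to 55.4% in both DTx groups, also without a call. Bhlhe40 and Id2 were above Treg PBS in both. Maf in CD8 DTx and Irf8 in CD4 DTx were called below Treg PBS. Altogether 3 of the 9 genes were called between CD4 DTx and Treg PBS and 2 between CD8 DTx and Treg PBS, where 7.91% and 8.6% of all genes were called in either direction.

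**Figure D4:**
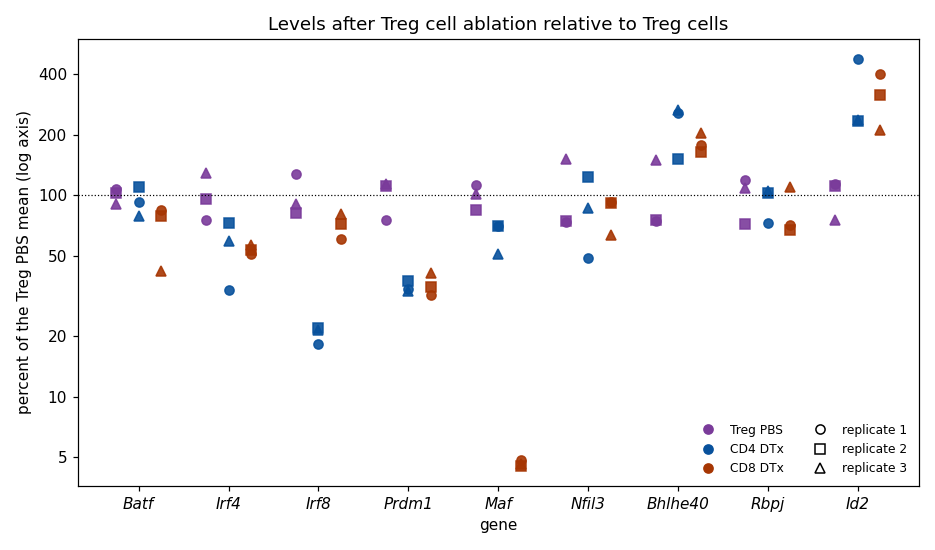
Level of each gene in each Treg PBS, CD4 DTx and CD8 DTx library as percent of its Treg PBS mean (log axis), with color for the group and shape for the replicate number. The dotted line is the Treg PBS mean. Bhlhe40 and Id2 lie above it in all 6 DTx libraries, Prdm1 near 35.0% in both DTx groups, and Maf at 4.67% in CD8 DTx.

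Replicate numbers 2 and 3 occurred in every group, and DTx was compared with PBS within each, with 1 library on each side and so no test. In CD8+ cells all 9 genes were higher with DTx within both numbers, and in CD4+ cells 8 were. Those signs follow from the separation of DTx from PBS libraries given above, so they add no support. Irf4 in CD4+ cells was higher by 1.89 on the log2 scale within number 2 and lower within number 3 (-0.35). The sizes also lay far apart for Prdm1 in CD8+ cells, 1.82 and 4.63, and for Nfil3 in CD4+ cells, 4.21 and 1.99. In CD8+ cells they were 0.055 and 1.555 for Maf and 1.72 and 0.245 for Batf. For Bhlhe40 they were 3.48 and 3.85 in CD4+ cells and 2.76 and 3.86 in CD8+ cells.

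Factors of naive, memory and follicular T cells, several of which BATF or Blimp-1 is known to oppose, went the other way. Of 9 such genes, 7 were lower in Treg PBS than in PBS-treated CD4+ Tconv cells and none was higher, where 6.91% of all genes were lower. With DTx 5 fell and none rose in CD4+ Tconv cells, and likewise 5 fell and none rose in CD8+ cells. The same 5 genes fell in both, namely Bach2, Tcf7, Lef1, Foxo1 and Foxp1, where 4.08% and 3.47% of all genes fell. The median log2 differences of the 9 genes were -2.96, -1.82 and -1.44 in these 3 comparisons. Lef1, a partner of TCF1 in naive T cells, went from 16628 ± 3422 normalized reads (SD, n = 2) to 3428 ± 642 (SD, n = 3) in CD4+ cells (log2 fold change -2.28, limma, adjusted p = 3.75e-04). In CD8+ cells its log2 fold change was -2.00 (adjusted p = 0.00162). Bach2, a repressor that competes with AP-1 proteins for DNA, went from 2663 ± 520 to 181 ± 74.1 in CD4+ cells (log2 fold change -3.94, adjusted p = 0.00174) and changed by -3.15 in CD8+ cells (adjusted p = 0.00929). Bcl6, the follicular helper factor that opposes Blimp-1, was at 233 ± 25.5 in CD4 PBS and 209 ± 63.0 in CD4 DTx, and its log2 fold change of -0.20 was not called (adjusted p = 0.859).

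Effector genes known as targets of BATF, IRF4, Blimp-1 or c-Maf were counted from a list of 15. In Treg PBS 13 were higher and 1, Il21, was lower than in CD4 PBS. With DTx 12 rose and none fell in CD4+ cells, and 12 rose and none fell in CD8+ cells. Over all genes, 13.5% were higher in Treg PBS, and 8.64% and 7.4% rose with DTx. The median log2 differences of the 15 genes were 3.84 and 3.63 with DTx. The smallest adjusted p in CD4+ cells belonged to Il1rl1, Havcr2 and Entpd1. Havcr2, the inhibitory receptor TIM-3, changed by 5.32 on the log2 scale in CD4+ cells (limma, adjusted p = 6.98e-05) and by 4.17 in CD8+ cells (adjusted p = 4.96e-04). Gzmb, a cytotoxic protease, changed by 5.18 in CD8+ cells (adjusted p = 5.33e-04). Between CD4 DTx and Treg PBS, where 7.91% of all genes were called, 5 were lower in CD4 DTx, among them Ctla4 (log2 difference -2.65, adjusted p = 8.42e-04). There 2 were higher (limma, adjusted p = 4.22e-04 and 0.00151), Il4 with 256 to 718 normalized reads against 0 to 5.08 in Treg PBS, and Il21 with 421 to 1257 against 0 to 20.6. Il10, a c-Maf and Blimp-1 target, was at 783 to 2214 in Treg PBS and at 0 to 191 in CD4 DTx, a change from CD4 PBS that was not called (adjusted p = 0.196).

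Few binding partners of the factors were called. Of 9 other AP-1 genes, 7 were tested, and none was called in either CD4+ comparison (Treg PBS or CD4 DTx over CD4 PBS). In CD8+ cells Jun and Junb fell with DTx (log2 fold changes -4.75 and -2.67, limma, adjusted p = 0.0399 and 0.0371), calls lost in 8 and 6 of 15 alternatives. Without CD8 PBS replicate 3 the values were -3.64 and -1.57. Of 7 other IRF genes, Irf5 was higher in Treg PBS and rose with DTx in both Tconv lineages (log2 fold changes 4.53, 3.53 and 2.47, adjusted p = 7.07e-05, 5.62e-04 and 0.00678), the last being 1.63 and not called without CD8 PBS replicate 3. Irf3 was lower in Treg PBS. Of 13 RBPJ and Notch pathway genes, 11 were tested. In CD4+ cells Adam10, a Notch protease, rose by 0.68 on the log2 scale (adjusted p = 0.0198) and the coactivator gene Maml3 fell. Maml3 also fell in CD8+ cells. The Notch target Dtx1 was lower in Treg PBS, relative to CD4 PBS (log2 difference -3.33, adjusted p = 0.00241), where Rbpj was higher. Of 5 ID and E protein genes beside Id2, none was called in either CD4+ comparison and 1, Id3, fell in CD8+ cells (-2.78, adjusted p = 0.0305). That call was lost in 6 of 15 alternatives. Over all genes tested, Treg PBS exceeded CD4 PBS for 13.5% and lay below it for 6.91%. With DTx, 8.64% rose and 4.08% fell in CD4+ cells, and 7.4% rose and 3.47% fell in CD8+ cells. Whether the counts of these short lists differ from such shares was not tested.

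Genes with the most similar pattern were sought for 4 of the factors over the 13 libraries, among 10466 genes, as Pearson r of log2 levels. These values describe libraries that fall into shared groups and differ in sequencing depth. Whether libraries of the same replicate number share a day is not given in the sources used here. Rap1b (r = 0.95), 2010107G23Rik (0.95) and Rac1 (0.95) were most like Batf. Tmf1 (0.90), Spry1 (0.89) and Rfk (0.87) were most like Irf4, the lowest values of the 4. Naprt (0.98), Srxn1 (0.97) and Lmna (0.97) were most like Prdm1. Ebi3 (0.97), Tnfrsf4 (0.97) and Hc (0.97) were most like Maf. Hc was at 0 in CD4 PBS, CD8 PBS and CD8 DTx, and 2010107G23Rik averaged 0.66 in CD4 PBS and 0 in CD8 PBS. The r of these 2 genes thus rests in part on levels at or near 0. Ebi3, which encodes a subunit of interleukins 27 and 35, was at 2448 normalized reads on average in Treg PBS, 593 in CD4 DTx and 42.8 in CD8 DTx. Among the factors themselves, r was highest for Bhlhe40 and Id2 (0.90) and lowest for Irf4 and Id2 (0.14).

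The strand setting of the authors' counting is not given in the sources used here. In GENCODE M21, antisense genes overlap Maf, Bhlhe40 and Rbpj, and another gene on the same strand overlaps Irf8, so reads from these could not be told apart. Batf, Irf4, Prdm1, Nfil3 and Id2 had no overlapping gene.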

How the data were processed

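The authors sorted T cells, prepared SMART-type low-input libraries and sequenced them on a HiSeq. Reads were trimmed with Cutadapt, aligned with hisat2 to NCBIM37 (mm9), and uniquely mapped reads were scaled to library size with an intergenic normalization. The counter, strand setting and gene filter are not given in the sources used here. The deposited table holds a normalized signal per gene and library, called FPM by the authors. Dividing by a step particular to each library turned 100% of its values into whole reads (tolerance 0.01), 1 read being worth 0.661 to 1.37 units. The values are called normalized reads, and 3 reads, taken as the detection floor, came to 1.98 to 4.10 units. No molecular identifiers are mentioned, so floors cover counting error only. All columns were used, and 21 symbols turned into dates were not named.

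The test covered genes at 10 normalized reads or more in 2 or more of the 13 libraries. It was limma 3.58.1 in R 4.3.3, fitted to log2(value + 1) with a trended variance prior, with 1 mean for each of 5 groups, no covariates and Benjamini-Hochberg adjustment. Fold changes are on that scale. Fits were tested on simulated data. Alternatives on the whole reads used edgeR 4.0.16 and DESeq2 1.42.0. Other alternatives were the pseudocount, the filter, TMM scaling, the mean trend, the libraries in the fit, a replicate block, leaving out each library, and sex as a covariate, which was added after seeing the data. No pair of libraries of a group agreed within sampling noise. In the CD4 DTx and CD8 DTx groups, deviations from the group mean correlated for each of the 3 shared replicate numbers (r = 0.36, 0.21 and 0.59). Some other groups also gave r above 0 for every shared number. For CD4 PBS and CD8 PBS r was 0.19 for both numbers. It is the same value by construction, since deviations from the mean of 2 libraries mirror each other. These correlations cannot show whether samples of the same number came from the same mice.

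The members and all gene lists were chosen with earlier results of these data known. All 10 members were to be named in each comparison, and from each related list the 3 genes with the smallest adjusted p, although some of these are not reported here. Bcl6, Il10, Il21 and Fos were named in addition, after their values were seen, and so were the marker genes that stand beside a result. Promoter sequences are from RefSeq (GRCm38.p6), a later build than that of the table, and were matched by symbol.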

Additional observations from a re-analysis of the deposited data

How the results depend on the processing

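Counts of the 9 factors called moved most with the fold threshold, the variance estimate and single PBS libraries. With 4-fold added to the adjusted p, the counts were 5 for Treg PBS over CD4 PBS, 4 for CD4 DTx over CD4 PBS, 3 for CD8 DTx over CD8 PBS, 1 for CD4 DTx over Treg PBS, 1 for CD8 DTx over Treg PBS, 1 for CD8 DTx over CD4 DTx and 3 for Treg PBS over CD8 PBS. With only the groups compared in the fit, 2 were called for CD8 DTx over CD8 PBS and 0 for CD8 PBS over CD4 PBS. Without a mean trend, 1 was called for CD8 DTx over CD4 DTx and 0 for CD8 PBS over CD4 PBS, and without the filter on low values 0 for the latter. DESeq2 called 1 in the interaction. Leaving out 1 library gave 4 to 7 for CD4 DTx over CD4 PBS, 3 to 7 for CD8 DTx over CD8 PBS, 1 throughout for CD8 DTx over CD4 DTx, 0 to 1 for CD8 PBS over CD4 PBS and 0 to 1 for the interaction, which tests fewer samples each time.

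With the replicate block, 2 were called between the CD8 DTx and CD4 DTx groups, as without it, and the block changed no other call there. Elsewhere the block gave 9 for Treg PBS over CD4 PBS, Irf4 included, and 7 for CD8 DTx over CD8 PBS, Nfil3 included. Prdm1 was then called between CD4 DTx and Treg PBS. Leaving out 1 library turned the sign of 4 differences that were not called: Irf4 in CD4 DTx over CD4 PBS (-0.52 to 1.41), and Batf (-0.21 to 0.0193), Nfil3 (-0.54 to 0.14) and Rbpj (-0.30 to 0.0902) in CD4 DTx over Treg PBS. The causes were not tested. The 2 PBS libraries of each Tconv group limit the precision of every DTx effect. Depth was less of a limit, since each factor had at least 49 recovered reads in every library.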
